A study of Homo sapiens with 8 samples.

Results

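Matrix metalloproteinases are secreted or membrane-bound zinc enzymes that cut collagens, proteoglycans, adhesion proteins and growth factor precursors, and the tissue inhibitors of metalloproteinases (TIMPs) bind and block them. The genes described here are 7 metalloproteinases (MMP1, MMP2, MMP3, MMP7, MMP10, MMP13 and MMP14) and 3 inhibitors (TIMP1, TIMP2 and TIMP3), 10 genes of 20046 with a named probe, read by 12 of the 47323 probes of an Illumina beadchip. They were chosen by name after their responses to lovastatin on these arrays were known. Their changes with lovastatin, in each line and between lines, are therefore given as a description with no p-value. RNA came from SKOV3 and OVCAR5, both human ovarian carcinoma cell lines, each 1 established line grown in culture without stroma. For 48 h the cultures held either 10 µM lovastatin, a drug that inhibits HMG-CoA reductase and so the mevalonate pathway, or the solvent DMSO. The groups were lovastatin-treated SKOV3, DMSO-treated SKOV3, lovastatin-treated OVCAR5 and DMSO-treated OVCAR5, with 2 arrays each, 8 in all.

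Most secreted metalloproteinases are made as inactive proenzymes, and their release is set largely by how much of each is transcribed. Collagenases such as MMP1 and MMP13 cut fibrillar collagen, stromelysins such as MMP3 and MMP10 cut proteoglycans and activate other proenzymes, and matrilysin, MMP7, is a small enzyme typical of epithelium. MMP14 is anchored in the membrane, where TIMP2 helps it to activate the gelatinase MMP2. In ovarian carcinoma these enzymes have been studied for their part in the invasion of the peritoneal lining. Many of their promoters carry sites for AP-1 factors and a TATA box near the start.

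RefSeq promoters (build GRCh38.p14) were at hand for 5 of the 10 genes: MMP7, MMP10, MMP14, TIMP1 and TIMP3. None was at hand for MMP1, MMP2, MMP3, MMP13 and TIMP2, so their promoters were not examined. The 2 promoters below are those of the 5 with an exact match to the 2 marked motifs, and both genes were higher with lovastatin in SKOV3. TIMP1 was also detected and higher there with lovastatin, and its promoter held neither motif. No link between motif and response is read from this choice. Each promoter is given as the 250 bases before the start, on the gene's own strand. Capitals mark TGANTCA, the AP-1 core, and TATAAA, the TATA box.
MMP7, chr11:102530748-102530997, minus strand: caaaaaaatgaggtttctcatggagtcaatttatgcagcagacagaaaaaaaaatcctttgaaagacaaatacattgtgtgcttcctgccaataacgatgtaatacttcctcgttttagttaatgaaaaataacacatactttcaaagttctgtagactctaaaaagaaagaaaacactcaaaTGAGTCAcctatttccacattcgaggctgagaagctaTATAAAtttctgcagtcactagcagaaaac
MMP10, chr11:102780629-102780878, minus strand: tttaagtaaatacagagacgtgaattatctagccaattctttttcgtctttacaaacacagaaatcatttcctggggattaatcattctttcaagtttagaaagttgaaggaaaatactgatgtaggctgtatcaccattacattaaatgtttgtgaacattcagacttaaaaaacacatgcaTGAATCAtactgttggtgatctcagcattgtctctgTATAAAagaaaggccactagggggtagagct
In both promoters the AP-1 core lay at bases -67 to -61 from the start, as TGAGTCA in MMP7 and TGAATCA in MMP10. TATAAA lay at -30 to -25 in MMP7 and at -31 to -26 in MMP10. Over all 35116 promoters of 300 bases (250 before to 50 after the start), read on both strands, 7.71% held TGANTCA and 11.5% held TATAAA. The promoters of MMP14, TIMP1 and TIMP3 held no exact match to either, and sites that differ from these letters by a base were not searched for. The letters AGGAAG, the core used by PEA3-type ETS factors, stood in 33.6% of all promoters. They occurred at -87 to -82 in TIMP1 and, read on the opposite strand, at 2 places in MMP7, -169 to -164 and -145 to -140. GGAATG, bound by TEAD factors, stood in 14% of all promoters and in none of these 5. The motifs do not overlap each other in these promoters, and a match describes letters, not binding.

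Levels are normalized log2 intensities, computed over all 8 arrays, and a probe was counted as detected on an array at a detection p under 0.01. A log2 difference is taken after 16 was added to each background-corrected intensity, which understates the change of dim probes. Between 15370 and 17231 probes were detected per array. Paired arrays within a group had r = 0.988 to 0.994 over tested genes, a correlation across genes and not across replicates, and the difference between the 2 arrays had an SD of 0.342 log2 with lovastatin in SKOV3, against 0.239 to 0.262 log2 in the other groups. Of 12 markers of ovarian carcinoma epithelium, 8 were detected on both arrays of each SKOV3 group and 5 on both arrays of each OVCAR5 group. CDH1, WT1, MUC16 and WFDC2 were detected on no array, and KRT7, KRT19 and MSLN on SKOV3 arrays only. The summed signal of that list ranged over 23410 to 26090 with lovastatin in SKOV3, against 12160 to 12420 with DMSO. In OVCAR5 it ranged over 3667 to 3967 with lovastatin, against 3312 to 3495 with DMSO. Such a sum weighs the brightest genes most and does not speak for the whole list. With lovastatin in SKOV3 these were ERBB2 and KRT19, with mean levels of 13.19 and 12.98, against 12.35 and 11.09 with DMSO. In OVCAR5 they stood at 8.39 and 4.73 with lovastatin. KRT8 stood at 11.29 with lovastatin in SKOV3, against 11.50 with DMSO. Of 10 fibroblast markers, 2 were detected on both arrays in each SKOV3 group and 0 in OVCAR5. Of 7 leukocyte markers with a probe, 0 were detected on both arrays of a SKOV3 group. In OVCAR5 2 were detected on both arrays with lovastatin (CD14 and CSF1R) and 1 with DMSO (CD14). LYZ was detected on 2 arrays, with group means of 5.08 to 5.38, and PTPRC, the pan-leukocyte marker, on no array. None of 6 endothelial markers was detected.

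Of the 10 genes, 7 were detected on at least 2 arrays and entered the fit over 11218 genes: MMP1, MMP3, MMP7, MMP10, MMP14, TIMP1 and TIMP2. A gene counted as called when its adjusted p (Benjamini-Hochberg, over all 11218 genes) in limma's moderated test was under 0.05. MMP2 and TIMP3 were detected on none of the 8 arrays, and MMP13 on 1. The probes that passed are not all probes of the family, and a gene that passed through the group in which it is high had to differ, so nothing is read from a count over the 7. As bulk RNA of whole cultures, more RNA per cell and a larger share of expressing cells cannot be told apart.

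**Figure D1:**
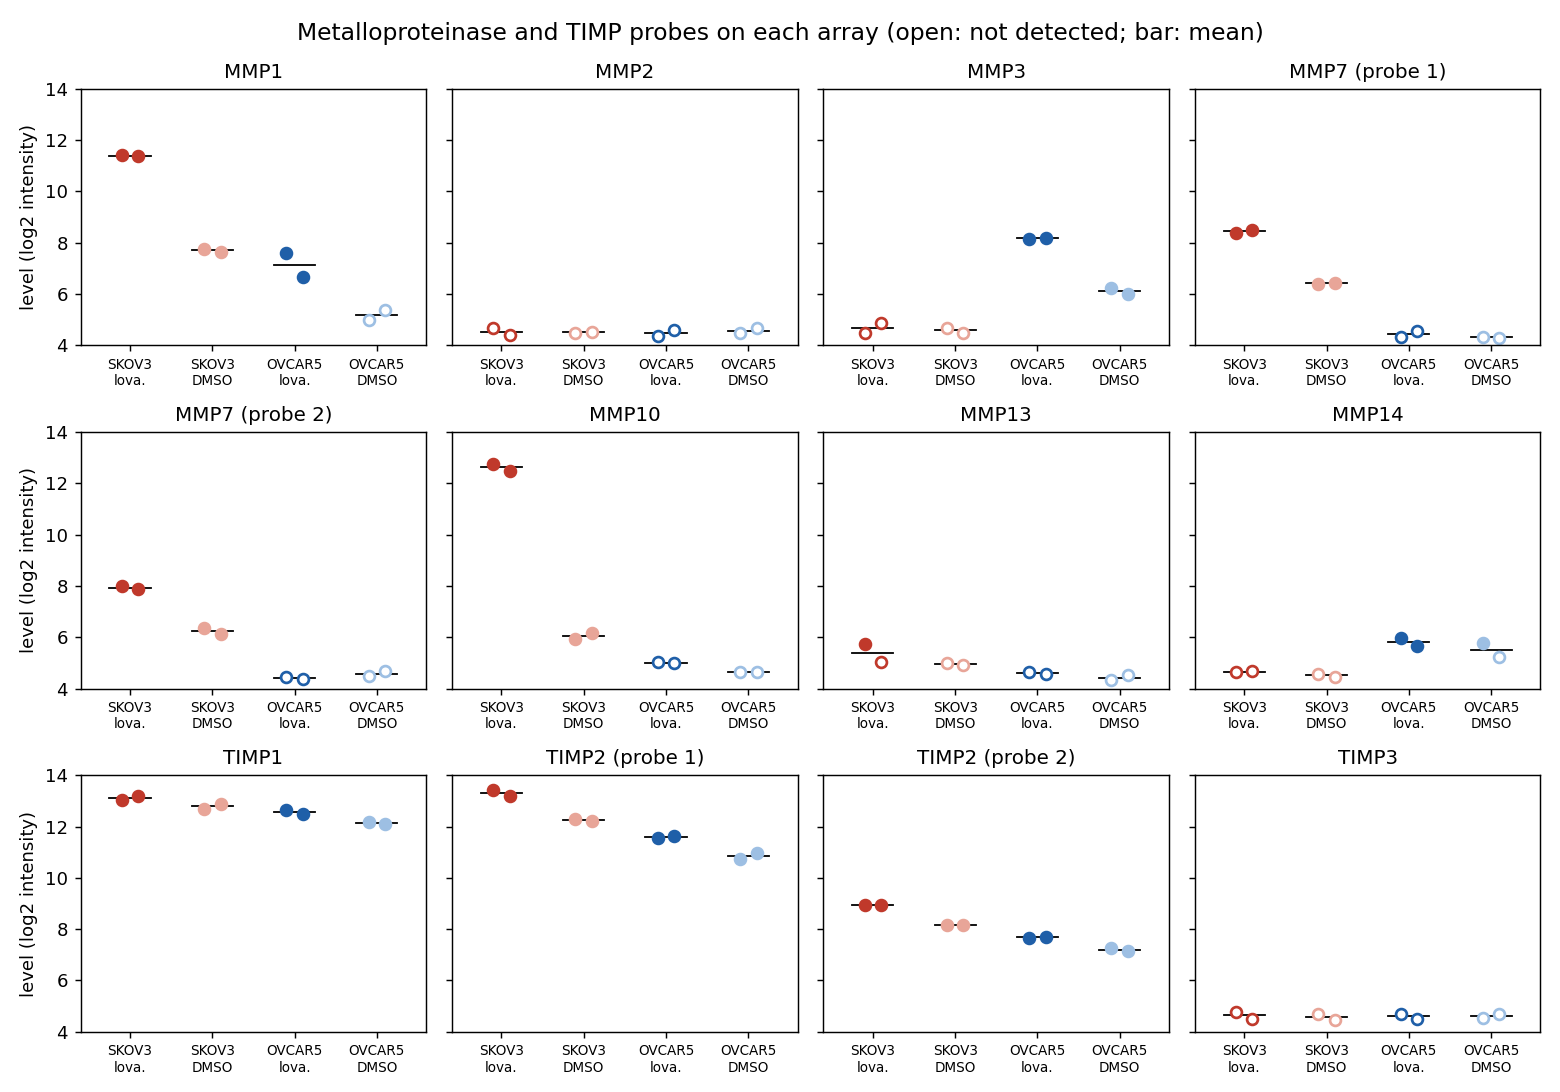
Normalized level (log2 intensity) of each of the 12 probes on each array, with a panel per probe, groups from left to right and a bar at the mean of the 2 arrays; open points were not detected. MMP10 stands near 12.6 in lovastatin-treated SKOV3 and is not detected in OVCAR5, MMP3 is detected only in OVCAR5, and TIMP1 and TIMP2 are bright on all 8 arrays.

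MMP10 (stromelysin-2) had the largest lovastatin difference of all 11218 tested genes in SKOV3. Its levels were 12.75 and 12.49 in lovastatin-treated SKOV3, against 5.95 and 6.15 in DMSO-treated SKOV3. The groups lay far apart, and the DMSO arrays stood just above the detection limit. The difference was 6.57 ± 0.13 log2 (SE of the limma fit, n = 2 arrays a group), a 94.7-fold higher signal. In OVCAR5 the probe was not detected in either group, with 5.02 and 4.99 with lovastatin and 4.66 and 4.66 with DMSO, so no fold is given there. Without background correction the SKOV3 difference was 5.28 log2, and it was 6.38 log2 in the authors' deposited table.

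MMP1 (interstitial collagenase) was the only metalloproteinase among the 10 genes that was higher with lovastatin, with a detected signal, in both lines. It stood at 11.41 and 11.37 in lovastatin-treated SKOV3, against 7.77 and 7.64 in DMSO-treated SKOV3, a difference of 3.69 ± 0.27 log2 or 12.9-fold (rank 24 of 11218). In OVCAR5 it stood at 7.60 and 6.68 with lovastatin, against 5.0 and 5.38 with DMSO, where it was not detected. Both lovastatin arrays lay above both DMSO arrays in each line, though the lovastatin-treated OVCAR5 arrays differed by almost 1 log2. The OVCAR5 difference was 1.95 ± 0.27 log2 (rank 64), and its size as a bound was at least 3.02-fold, the lovastatin mean set against the dimmest detected signal of each DMSO array. Bounds below were set the same way. It was 1.49 log2 without OVCAR5 lovastatin replicate 1 and 2.41 log2 without OVCAR5 lovastatin replicate 2, and 0.85 log2 without background correction. The order of the group levels was lovastatin-treated SKOV3, DMSO-treated SKOV3 (7.70 ± 0.09, SD), lovastatin-treated OVCAR5 (7.14 ± 0.65) and DMSO-treated OVCAR5, and the middle pair did not differ beyond its spread.

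MMP7 (matrilysin) was detected in SKOV3 only. Its brighter probe gave 8.39 and 8.51 in lovastatin-treated SKOV3, against 6.40 and 6.44 in DMSO-treated SKOV3, a difference of 2.03 ± 0.13 log2 or 4.09-fold (rank 195). The second probe gave 7.99 and 7.89 with lovastatin, against 6.35 and 6.14 with DMSO, a difference of 1.70 log2. Both probes separated the treatments in SKOV3. In OVCAR5 neither probe was detected in either group, with levels of 4.31 to 4.55 with lovastatin and 4.30 to 4.68 with DMSO. Without background correction the SKOV3 difference of the brighter probe was 1.29 log2.

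MMP3 (stromelysin-1) had the opposite distribution: it was detected in OVCAR5 and not in SKOV3. Levels were 8.14 and 8.20 in lovastatin-treated OVCAR5, against 6.25 and 6.0 in DMSO-treated OVCAR5. The difference was 2.04 ± 0.16 log2 or 4.11-fold (rank 55 of 11218), and the treated arrays nearly coincided. In SKOV3 it read 4.50 and 4.86 with lovastatin, against 4.68 and 4.50 with DMSO, all below detection. Without background correction the OVCAR5 difference was 1.20 log2. MMP3 and MMP10 are close relatives that lie near each other on chromosome 11, and each of these probes was detected in the line where the other was not.

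MMP14, the membrane-type enzyme, was near the detection limit. It read 5.98 and 5.66 in lovastatin-treated OVCAR5, against 5.78 and 5.23 in DMSO-treated OVCAR5, where 1 of 2 arrays detected it. The groups overlapped, and the difference of 0.31 ± 0.19 log2 was 0.04 without OVCAR5 DMSO replicate 2 and 0.59 without OVCAR5 DMSO replicate 1. In SKOV3 it read 4.64 and 4.69 with lovastatin, against 4.57 and 4.46 with DMSO, all below detection. MMP13 (collagenase-3) was detected on 1 lovastatin-treated SKOV3 array, at 5.73, and on no other, the second lovastatin array reading 5.02 and the DMSO arrays 4.99 and 4.91. MMP2, the gelatinase that MMP14 activates, read 4.39 and 4.68 with lovastatin in SKOV3, against 4.50 and 4.51 with DMSO, and 4.38 and 4.61 with lovastatin in OVCAR5, against 4.47 and 4.67 with DMSO, below detection throughout.

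Among the inhibitors, TIMP2, which blocks soluble and membrane-type enzymes and also carries proMMP2 to MMP14, was higher with lovastatin in both lines. Its brighter probe gave 13.43 and 13.18 in lovastatin-treated SKOV3, against 12.31 and 12.21 in DMSO-treated SKOV3, a difference of 1.04 ± 0.14 log2 or 2.06-fold. In OVCAR5 it gave 11.54 and 11.63 with lovastatin, against 10.75 and 10.96 with DMSO, a difference of 0.73 ± 0.14 log2 or 1.66-fold. The second probe showed the same order at a dimmer level, 8.93 and 8.96 with lovastatin, against 8.16 and 8.17 with DMSO, in SKOV3 (0.78 log2), and 7.67 and 7.69 with lovastatin, against 7.27 and 7.14 with DMSO, in OVCAR5 (0.48 log2). No array of 1 treatment reached into the other by either probe. The OVCAR5 difference of the brighter probe was 0.63 log2 without OVCAR5 DMSO replicate 1 and 0.69 log2 without OVCAR5 lovastatin replicate 2, and its call moved with the arrays used.

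TIMP1, a broad inhibitor that is bright in both lines, differed least among the detected inhibitors. It read 13.02 and 13.20 in lovastatin-treated SKOV3, against 12.69 and 12.88 in DMSO-treated SKOV3, a difference of 0.32 ± 0.13 log2. In OVCAR5 it read 12.63 and 12.49 with lovastatin, against 12.16 and 12.11 with DMSO, a difference of 0.42 ± 0.13 log2. The lovastatin arrays lay above the DMSO arrays in each line, by differences not called in the fit. With any 1 array left out the difference was 0.23 to 0.42 log2 in SKOV3 and 0.35 to 0.49 log2 in OVCAR5. Whether TIMP1 was called moved with the setting in both lines. As these contrasts chose the genes, its calls are a description and not a test. TIMP3, an inhibitor held in the matrix, read 4.79 and 4.51 with lovastatin in SKOV3, against 4.69 and 4.47 with DMSO, and 4.69 and 4.51 with lovastatin in OVCAR5, against 4.53 and 4.71 with DMSO, below detection on each array.

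**Figure D2:**
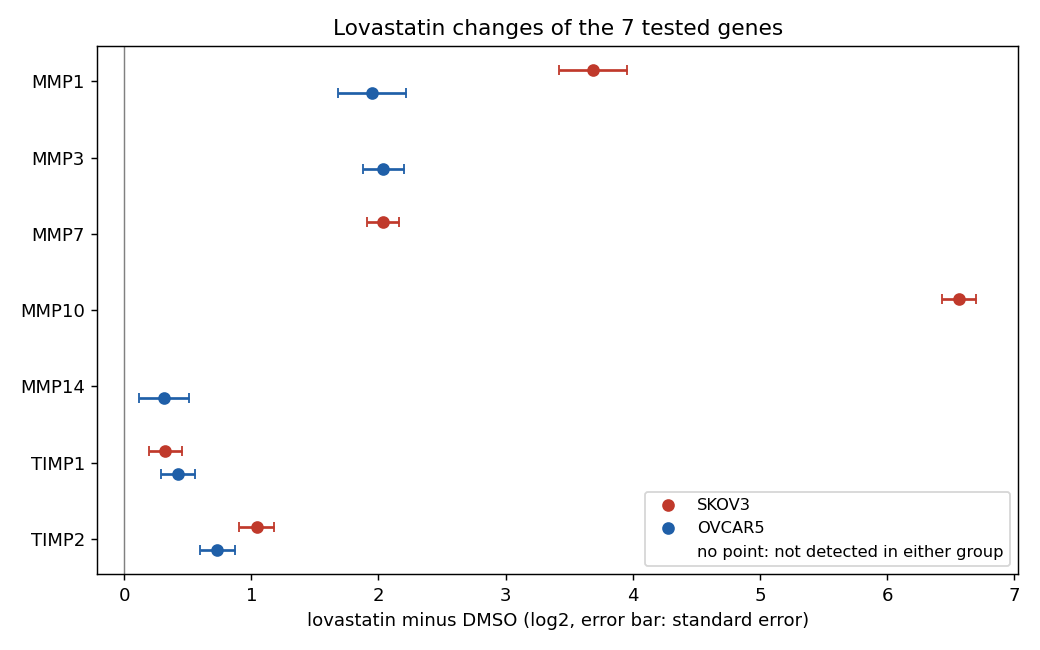
Log2 difference between lovastatin and DMSO (x axis) for the 7 tested genes (rows) in SKOV3 and OVCAR5, with standard errors of the fit; a line in which neither group detected the gene has no point. In SKOV3 MMP10 stands at 6.57, MMP1 at 3.69 and MMP7 at 2.03; in OVCAR5 MMP3 stands at 2.04 and MMP1 at 1.95; TIMP1 and TIMP2 lie at 1.04 or below in both.

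In SKOV3 4 of the 7 tested genes were called higher and 0 lower, where 50.5% of all genes were called, 26.6% higher and 23.9% lower. In OVCAR5 3 were called higher and 0 lower, where 22.8% of all genes were called, 13.5% higher and 9.29% lower. Because these contrasts chose the genes, nothing is read from these counts or from their medians. The median difference of the 7 genes was 1.04 log2 in SKOV3 and 0.42 log2 in OVCAR5, beside 0.03 and 0.01 log2 over all tested genes.

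The lovastatin difference itself was set between lines, as the SKOV3 difference minus the OVCAR5 difference. It was 6.22 ± 0.19 log2 for MMP10, 1.92 ± 0.18 log2 for MMP7 and 1.74 ± 0.38 log2 for MMP1. It was -1.95 ± 0.23 log2 for MMP3. For MMP10, MMP7 and MMP3, 1 of the lines had no detected signal in either group, so these values compare a measured change with readings below detection. For the inhibitors the values were 0.31 ± 0.20 log2 (TIMP2) and -0.10 ± 0.19 log2 (TIMP1), each under 2 standard errors, and MMP14 stood at -0.16 ± 0.27 log2. In this comparison 3 of the 7 genes were called higher and 1 lower, where 27.3% of all genes were called, 12.8% higher and 14.5% lower, and again the choice of genes used it. Of the 7 metalloproteinases, MMP1 was the one detected in both lines, in OVCAR5 with lovastatin only. Its value between lines was 1.28 to 2.20 log2 when any 1 array was left out and 2.33 log2 without background correction.

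The lines also differed before treatment, a contrast taken as not used to choose the genes, though it shares the DMSO arrays with the lovastatin differences above. Earlier results of these data were known when the genes were chosen, so the p-values below may not be free of that choice. DMSO-treated SKOV3 had more MMP1, MMP7, MMP10, TIMP1 and TIMP2 signal than DMSO-treated OVCAR5, and less MMP3 and MMP14. MMP7, MMP10, MMP3 and MMP14 passed the detection filter through 1 line only and so had to differ. Nothing is read from their calls under that filter, and their tests below come from a fit with no filter on detection. Dropping the filter does not undo the choice of these genes. The other 3 genes, MMP1, TIMP1 and TIMP2, were called higher in SKOV3, where 61.9% of all tested genes were called, 32.3% higher and 29.6% lower. TIMP2 read 12.31 and 12.21 in SKOV3, against 10.75 and 10.96 in OVCAR5, 2.66-fold higher (1.41 ± 0.14 log2, limma adjusted p = 3.99e-05). TIMP1 was 1.57-fold higher (0.65 ± 0.13 log2, limma adjusted p = 0.00259), with both SKOV3 arrays above both OVCAR5 arrays.

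For the enzymes 1 of the lines was below detection in DMSO, so the size of the line difference is a bound. MMP1 was at least 4.47-fold higher in SKOV3 (limma adjusted p = 6.46e-05), MMP7 at least 1.83-fold (with no filter, limma adjusted p = 5.2e-06) and MMP10 at least 1.42-fold (with no filter, adjusted p = 7.33e-05). MMP3 was at least 1.61-fold lower in SKOV3 (with no filter, adjusted p = 0.000123) and MMP14 at least 1.05-fold lower (with no filter, adjusted p = 0.00439), the MMP14 value resting on 1 of 2 OVCAR5 arrays with a detected signal. Without background correction the fitted line differences shrank to 1.20 log2 (against 2.52 log2) for MMP1, 0.89 log2 (against 2.10 log2) for MMP7, 0.47 log2 (against 1.39 log2) for MMP10 and -0.54 log2 (against -1.54 log2) for MMP3. MMP9, the second gelatinase and not among the 10 genes, was detected in OVCAR5 only, with mean levels of 7.62 with lovastatin and 7.31 with DMSO, a difference that was not called.

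Of the 10 genes, 5 lie on chromosome 11 (MMP7, MMP10, MMP1, MMP3 and MMP13, in the order of the RefSeq annotation of GRCh38.p14), within a run of 9 metalloproteinase genes. The other 4 of that run, MMP20, MMP27, MMP8 and MMP12, were detected on no array. Of 11 listed neighbours that are not metalloproteinases, 6 were tested, and their lovastatin differences lay between -0.85 and 0.06 log2 in SKOV3 and between -0.30 and 0.23 log2 in OVCAR5. In SKOV3 1 of them was called: DCUN1D5, beside MMP13 in the listed order and encoding a cofactor of cullin neddylation, fell (-0.56 ± 0.11 log2, limma adjusted p = 0.00367). In OVCAR5 limma called 0, with 1 at an unadjusted p under 0.05. YAP1, the transcriptional coactivator on the other flank, stood at 0.06 log2 in SKOV3 and 0.18 log2 in OVCAR5, neither called. Detected and undetected genes were interspersed in the run. The detected enzymes were MMP7, MMP10 and MMP1 on both arrays of both SKOV3 groups and MMP3 on both arrays of both OVCAR5 groups, with MMP1 added in lovastatin-treated OVCAR5.

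Genes with a pattern most like each of the 7 were found by the root mean square difference of centred log2 levels over the 8 arrays, given as a description. MMP10 had no close match: the nearest were NUPR1 (1.03 log2), RN7SK (1.21 log2), IFI27 (1.24 log2), FAM25A (1.26 log2) and TSC22D3 (1.30 log2). NUPR1, a stress-induced transcription regulator, stood 4.75 log2 above DMSO in SKOV3 and 0.10 log2 in OVCAR5. TSC22D3, known as the glucocorticoid-induced leucine zipper, was nearest to MMP1 (0.27 log2), at 3.82 log2 above DMSO in SKOV3 and 2.17 log2 in OVCAR5. UCN2, a neuropeptide of the corticotropin-releasing family, was nearest to MMP3 (0.22 log2), and MSMO1, an enzyme of cholesterol synthesis, was nearest to MMP7 (0.15 log2), at 1.85 log2 in SKOV3 and 0.37 log2 in OVCAR5. CRACR2B was nearest to MMP14 (0.09 log2), FAM50A to TIMP1 (0.05 log2) and RRAGB to TIMP2 (0.08 log2). These distances grow with the size of the pattern, so a small distance for the TIMPs and MMP14 comes with small changes.

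Counts of called genes in the lists that follow stand beside 50.5% of all tested genes called in SKOV3 (26.6% higher, 23.9% lower) and 22.8% in OVCAR5 (13.5% higher, 9.29% lower), and nothing is called particular to a list. The lists were chosen with earlier results of these data known, and genes were named from them for large changes among those called. Their p-values, and that of DCUN1D5 above, are not free of that choice and describe picked genes. Among them MMP28, MMP15, SPOCK2 and ITGB3 in SKOV3 and CSF1R in OVCAR5 had to differ. These passed the detection filter only through the lovastatin arrays in which they are high. For them the p-values come from the limma fit with no filter on detection, which does not undo the choice of these genes. Of the other 16 metalloproteinases on the list, 5 were tested. In SKOV3 3 were called higher and 0 lower, and 2 of the 3 had passed the filter in that way, so the count is not read. MMP28 (epilysin), detected on both lovastatin-treated and no DMSO-treated SKOV3 array, rose at least 1.79-fold (with no filter, adjusted p = 0.00137), and its second probe differed by 2.35 log2. MMP15, a membrane-type enzyme like MMP14, rose at least 1.62-fold (with no filter, adjusted p = 0.0177). MMP23B rose by 1.11 ± 0.29 log2 (adjusted p = 0.0129), and remains uncertain because its near-identical copy MMP23A could share its probe. The calls of MMP15 and MMP23B were lost without SKOV3 DMSO replicate 1 (0.66 and 0.77 log2), leaving 1 of the 3, and that of MMP23B also without SKOV3 lovastatin replicate 2 (0.92 log2). In OVCAR5 limma called 0 of the 5, with 0 at an unadjusted p under 0.05, and the median was -0.10 log2.

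Of 10 other inhibitors and related proteins, 7 were tested. In SKOV3 1 rose: SPOCK2, a proteoglycan of the testican family, by at least 1.32-fold (with no filter, adjusted p = 0.0294), a call lost without SKOV3 DMSO replicate 1 (0.71 log2) or SKOV3 lovastatin replicate 2 (0.74 log2). In OVCAR5 2 rose. TIMP4, the fourth TIMP, read 6.67 and 6.50 with lovastatin, against 5.58 and 5.71 with DMSO (0.94 ± 0.13 log2, limma adjusted p = 0.0019), and was not detected in SKOV3. SPOCK1 rose by 0.45 ± 0.12 log2 (adjusted p = 0.0339), a call lost when any 1 of the 4 OVCAR5 arrays was left out (0.40 to 0.49 log2). None of the 7 fell in either line, and the medians were 0.24 log2 in SKOV3 and -0.05 log2 in OVCAR5. Of 11 genes listed under proprotein convertases and surface serine proteases, some of which trim the propeptide of membrane-type enzymes, 5 were tested. The list also held HGF, a growth factor, and HGFAC, both detected on no array. FURIN rose in SKOV3 (1.28 ± 0.33 log2, adjusted p = 0.0126) and PCSK7 fell (-0.56 ± 0.17 log2, adjusted p = 0.0229). FURIN's call was lost without SKOV3 DMSO replicate 1 (1.15 log2) or SKOV3 lovastatin replicate 1 (0.97 log2), and that of PCSK7 without SKOV3 DMSO replicate 2 (-0.45 log2) or SKOV3 lovastatin replicate 1 (-0.37 log2). In OVCAR5 limma called 0 of these 5, with 1 at an unadjusted p under 0.05, and the medians were 0.05 and 0.02 log2 in SKOV3 and OVCAR5.

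Among genes of plasminogen activation, PLAU and SERPINE2 were called higher in both lines, and the other calls were in 1 line only. This system makes plasmin at the cell surface, and plasmin can activate several proenzymes of the family. Of 10 listed genes 7 were tested. In SKOV3 4 rose and 0 fell, where 50.5% of all tested genes were called and 26.6% called higher. In OVCAR5 3 rose and 0 fell, where 22.8% were called and 13.5% called higher. The medians were 1.03 and 0.46 log2, and nothing is read from these counts. PLAU, the urokinase, read 12.89 and 12.88 in lovastatin-treated SKOV3, against 11.44 and 11.55 in DMSO-treated SKOV3 (1.39 ± 0.12 log2, limma adjusted p = 3.45e-05). In OVCAR5 it read 12.62 and 12.70 with lovastatin, against 11.54 and 11.66 with DMSO (1.06 ± 0.12 log2, limma adjusted p = 0.000629). SERPINE2, an inhibitor of serine proteases that acts on plasminogen activators, rose by 1.03 ± 0.12 log2 in SKOV3 (adjusted p = 0.000221) and by 0.85 ± 0.12 log2 in OVCAR5 (adjusted p = 0.00209). The urokinase receptor PLAUR rose in SKOV3 (1.73 ± 0.14 log2, adjusted p = 2.74e-05, with 1.09 and 1.88 log2 by its other probes) and stood at -0.10 ± 0.14 log2 in OVCAR5. The difference between lines was itself called (1.83 ± 0.20 log2, adjusted p = 0.000457). The tissue activator PLAT rose in SKOV3 (1.10 ± 0.20 log2, adjusted p = 0.00233), and S100A10, a plasminogen receptor subunit, rose in OVCAR5 (0.46 ± 0.12 log2, adjusted p = 0.0305), a call lost when any 1 of the 4 OVCAR5 arrays was left out (0.36 to 0.56 log2).

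The ADAM and ADAMTS proteases, relatives that shed membrane proteins or cut proteoglycans, moved in both directions. Of 21 listed 9 were tested, of which 3 rose and 3 fell in SKOV3 and 1 rose and 1 fell in OVCAR5, with medians of -0.34 and 0.02 log2; 1 of the 3 that fell had passed the filter only through the DMSO-treated SKOV3 arrays. ADAMTS1, an aggrecanase, read 8.28 and 8.20 in lovastatin-treated SKOV3, against 9.92 and 9.89 in DMSO-treated SKOV3 (-1.67 ± 0.13 log2, limma adjusted p = 1.87e-05), and was not detected in OVCAR5. ADAM17, the sheddase of tumour necrosis factor, rose by 1.62 ± 0.18 log2 in SKOV3 (adjusted p = 0.000142), with 0.79 and 0.70 log2 by its other probes. In OVCAR5 it rose by 0.72 ± 0.18 log2 (adjusted p = 0.0228), a call lost without OVCAR5 DMSO replicate 1 (0.58 log2) or either OVCAR5 lovastatin replicate (0.60 and 0.83 log2). Its other probes stood at 0.71 and 0.40 log2 in OVCAR5, so the lines lay closer by them than by the brightest probe. ADAMTS6 fell in both lines, by at least 1.04-fold in SKOV3 (adjusted p = 0.00103), where 1 of 2 DMSO arrays and no lovastatin array detected it. In OVCAR5 the change was -1.22 ± 0.14 log2 (adjusted p = 0.000817), with a detected signal on 1 of 2 lovastatin arrays and both DMSO arrays.

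Surface partners of the metalloproteinases and receptors that clear them made up a list of 16, of which 13 were tested. In SKOV3 10 were called higher and 2 lower, where 26.6% of all tested genes were called higher and 23.9% lower. Of those calls, 2 higher and 1 lower had passed the filter only through the arrays in which the gene is high, which leaves 8 higher and 1 lower. The same step over all 11218 tested genes leaves 2758 higher and 2539 lower. In OVCAR5 4 rose and 1 fell. LCN2, lipocalin-2, which binds MMP9, read 10.51 and 10.60 in lovastatin-treated SKOV3, against 7.06 and 7.26 in DMSO-treated SKOV3 (3.40 ± 0.13 log2, limma adjusted p = 1.21e-06), and rose by 0.79 ± 0.13 log2 in OVCAR5 (adjusted p = 0.00442). CLDN1, a tight junction claudin, went opposite ways in the lines. It read 10.80 and 10.85 in lovastatin-treated SKOV3, against 9.18 and 9.09 in DMSO-treated SKOV3 (1.69 ± 0.15 log2, limma adjusted p = 5.18e-05). In OVCAR5 it read 6.11 and 5.73 with lovastatin, against 7.26 and 7.47 with DMSO (-1.44 ± 0.15 log2, limma adjusted p = 0.00052), and the difference between lines was itself called (3.13 ± 0.22 log2, adjusted p = 8.61e-05). SDC4, a heparan sulphate proteoglycan, rose in SKOV3 (1.42 ± 0.14 log2, adjusted p = 7.82e-05), and the integrin subunit ITGB3 rose by at least 1.47-fold there (with no filter, adjusted p = 0.000374). In OVCAR5 ITGB3 was called higher (limma adjusted p = 0.00162) with a signal on 1 of 2 lovastatin arrays and on 0 of 2 DMSO arrays. Its lovastatin mean there (5.43) lay below the dimmest detected signal of each DMSO array (5.49 and 5.59). The size of that difference has no bound, and no rise is read from the call.

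Factors of the AP-1 and ETS families, known to bind metalloproteinase promoters, were listed with RUNX2. Of 18 listed 17 were tested, of which 6 rose and 3 fell in SKOV3, near the share over all tested genes, and 6 rose and 1 fell in OVCAR5, with medians of 0.30 and 0.28 log2. The 7 calls in OVCAR5 were 4 without OVCAR5 DMSO replicate 1 or OVCAR5 lovastatin replicate 1. JUND rose in both lines, by 1.48 ± 0.12 log2 in SKOV3 (adjusted p = 2.97e-05) and by 2.21 ± 0.12 log2 in OVCAR5 (adjusted p = 2.85e-05). ATF3 read 11.01 and 11.02 in lovastatin-treated SKOV3, against 6.70 and 7.03 in DMSO-treated SKOV3 (4.15 ± 0.30 log2, limma adjusted p = 1.45e-05). In OVCAR5 its arrays overlapped, at 6.44 and 6.62 with lovastatin and 5.72 and 6.78 with DMSO. The PEA3-type factors ETV5 (3.62 ± 0.14 log2, adjusted p = 1.21e-06) and ETV4 (at least 3.02-fold, adjusted p = 1.37e-05) rose in SKOV3. In OVCAR5 they rose by 0.50 log2 (ETV5, adjusted p = 0.0377) and 0.54 log2 (ETV4, adjusted p = 0.0236), calls lost when any 1 of the 4 OVCAR5 arrays was left out (0.42 to 0.59 log2 for ETV5, 0.46 to 0.62 log2 for ETV4). The other ETV4 probe differed by 0.19 log2 there. RUNX2, which drives MMP13 in bone, fell in SKOV3 (-0.53 ± 0.14 log2, adjusted p = 0.0145), a call lost without SKOV3 DMSO replicate 1 (-0.39 log2) or SKOV3 lovastatin replicate 2 (-0.41 log2). In OVCAR5 it rose at least 1.98-fold (adjusted p = 0.00021). ELF3, an epithelial ETS factor, rose by 1.13 ± 0.17 log2 in OVCAR5 (adjusted p = 0.00236) and by 0.65 ± 0.17 log2 in SKOV3 (adjusted p = 0.0118), the SKOV3 call being lost without SKOV3 DMSO replicate 1 (0.43 log2). The part of these factors in the levels of the metalloproteinases was not tested.

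**Figure D3:**
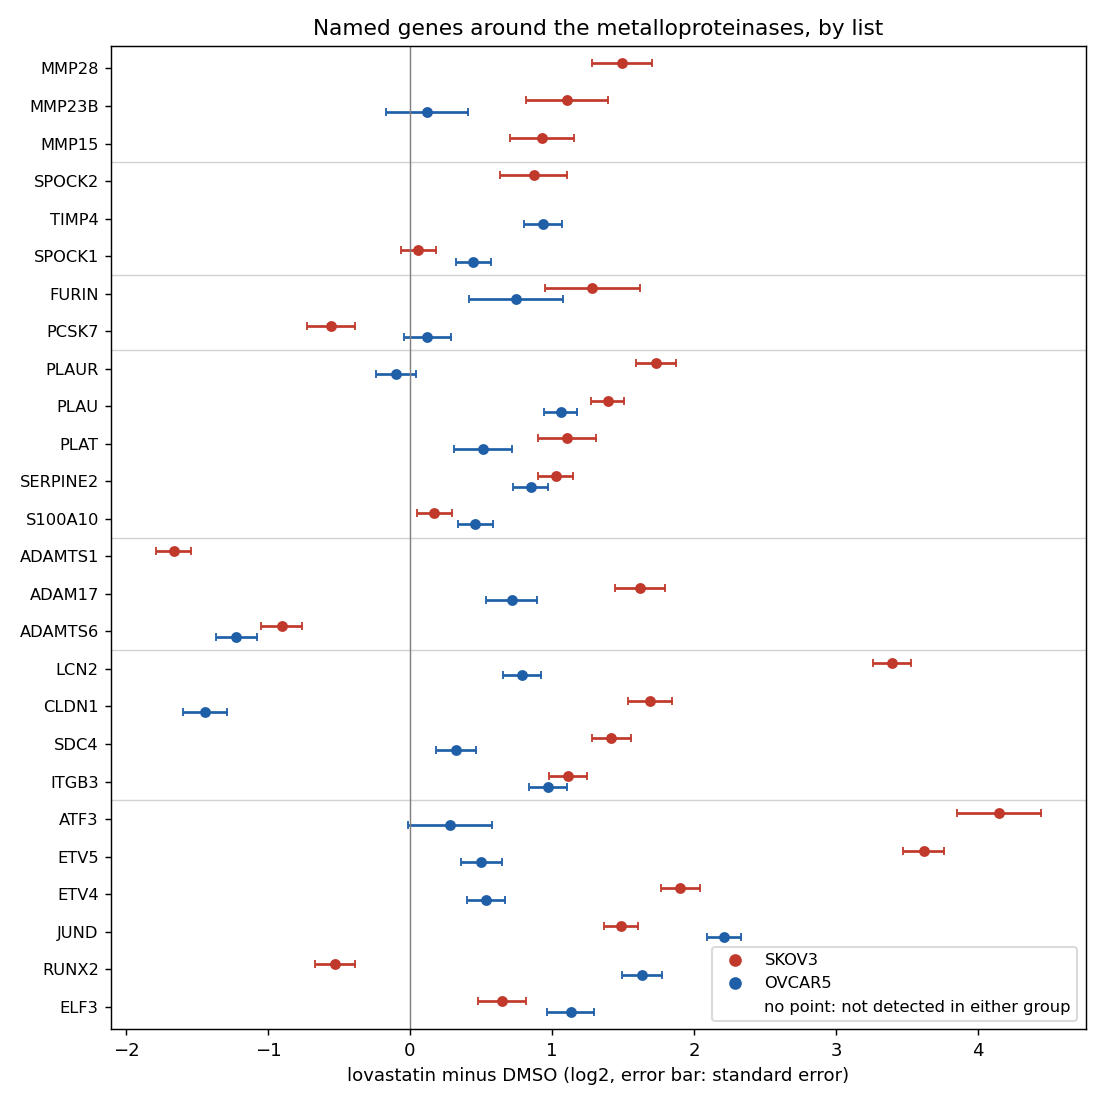
Log2 difference between lovastatin and DMSO (x axis, bars are standard errors) for the named genes of 7 lists around the metalloproteinases, with grey lines between lists; a line in which neither group detected the gene has no point. PLAU and SERPINE2 lie to the right of 0 in both lines, CLDN1 lies at 1.69 in SKOV3 and at -1.44 in OVCAR5, and ATF3, ETV5 and LCN2 have SKOV3 values above 3.

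Cell type markers also changed with treatment. In SKOV3 5 of the 8 tested epithelial markers rose and 1 fell (KRT18, -0.39 ± 0.12 log2, limma adjusted p = 0.0268, lost without 3 of the 4 SKOV3 arrays in turn, at -0.44 to -0.33 log2). The second KRT18 probe stood at 0.02 log2, so the fall was seen by 1 probe of 2. KRT19 rose by 1.89 ± 0.12 log2 (adjusted p = 7.62e-06), PAX8 by 1.62 ± 0.17 log2 (adjusted p = 0.000111) and EPCAM by 1.30 ± 0.12 log2 (adjusted p = 5.67e-05). ERBB2 rose by 0.83 ± 0.12 log2 there (adjusted p = 0.000677). In OVCAR5 3 rose and 1 fell. ERBB2 rose by 0.64 ± 0.12 log2 (adjusted p = 0.00712), a call lost without OVCAR5 lovastatin replicate 1 (0.58 log2). EPCAM rose by 0.49 ± 0.12 log2 (adjusted p = 0.022), a call lost when any 1 of the 4 OVCAR5 arrays was left out. KRT18 fell (-0.51 ± 0.12 log2, adjusted p = 0.0178), a call lost without 3 of the 4 OVCAR5 arrays in turn, with -0.24 log2 by its second probe. PAX8, 1 of the 3, differed by 1.30 log2 by its brightest probe but by -0.04 and 0.12 log2 by its other probes. These 4 calls were 2 without OVCAR5 DMSO replicate 1 or OVCAR5 lovastatin replicate 2 and 1 without OVCAR5 lovastatin replicate 1. The leukocyte-listed receptors CSF1R (at least 2.53-fold, with no filter adjusted p = 0.000563) and CD14 (0.54 ± 0.13 log2, adjusted p = 0.0173) rose in OVCAR5, the CD14 call being lost when any 1 of the 4 OVCAR5 arrays was left out (0.48 to 0.61 log2), and PTPRC, CD3E, MS4A1 and ITGAM were detected on no array. Limma called 0 of the 4 tested fibroblast markers in either line, with 2 at an unadjusted p under 0.05 in SKOV3 and 0 in OVCAR5. In SKOV3 1 was called under 6 alternatives, among them the authors' deposited table, no filter on detection and the replicate block. The part of these shifts in the metalloproteinase levels was not tested.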

How the data were processed

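Biotin-labelled cRNA was hybridised to beadchips of 47323 probes, 8 in all, with total RNA purified on columns per the labels' protocols. The deposited table gives a mean bead intensity per probe and array, not normalized per the file headers and, judged from its values, not background-subtracted, and a detection p-value from the negative control beads. The authors also deposited log2 values, made with limma per the submitters' processing notes, whose version is not given in the sources used here. Within 0.01 log2, 99.997% (SKOV3) and 99.987% (OVCAR5) of its values matched neqc run on that line's 4 arrays alone, so its scale was taken as uncentred log2. Its arrays had medians of 4.81 (SKOV3) and 4.74 (OVCAR5), with 1 value absent.

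Levels were made from the 8 arrays' intensities together by neqc of limma 3.58.1 (R 4.3.3): normexp background correction through the detection p-values, then an offset of 16, quantile normalization and log2. Gene names came from the platform annotation: 30113 probes had 1 symbol, 8 had several and 17202 were unnamed here. A probe was kept if it had 1 symbol and 2 or more arrays with a detection p below 0.01 (14851 probes), and a gene took its brightest kept probe. Limma was fitted to 4 group means, with Benjamini-Hochberg adjustment over 11218 genes. Separate cultures for the replicate arrays are not stated in the labels, so p-values measure only the spread between these arrays, and 2 arrays a group limit the precision. The labels and file headers name no slide or scan batch.

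The 10 genes and the 12 other lists were chosen with earlier results of these data known. The p-values of genes named from the lists are therefore not free of that choice. All 10 were named, with every probe. From each other list up to 3 called genes with the largest absolute change in each line were named, plus the nearest gene in pattern to each of the 7 (5 for MMP10). Genes named outside this rule (MMP9, YAP1, LYZ, KRT8, HGF, HGFAC, MMP20, MMP27, MMP8, MMP12 and undetected markers) were singled out after their values were seen. Some listed genes were not analysed here. Alternatives were the background correction, the offset, the authors' table, the detection filter, probes tested singly, a trended robust fit, a replicate block, the 4 arrays of a line alone and each array left out. Plots used matplotlib 3.10.9 and Python 3.11.15.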

Additional observations from a re-analysis of the deposited data

Results flagged for a closer look

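For 22 of the 41 named genes with a fitted change, the difference between the lines in the lovastatin change passed an adjusted p of 0.05 in the limma fit, where 27.3% of all tested genes did. The named genes were picked for large changes in 1 line, so nothing is read from that count. Values are SKOV3 change minus OVCAR5 change in log2. Among the metalloproteinases and TIMPs it was 6.22 for MMP10, 1.92 for MMP7, 1.74 for MMP1 and -1.95 for MMP3, which describe genes chosen for their response and carry no test. Among the other metalloproteinases and inhibitors it was 1.60 for MMP28, 1.03 for MMP15, 1.15 for SPOCK2 and -1.08 for TIMP4. Among proteases and their receptors it was 1.83 for PLAUR, 0.91 for ADAM17 by its brightest probe and -1.47 for ADAMTS1, and among surface partners 3.13 for CLDN1, 2.61 for LCN2 and 1.10 for SDC4. Among transcription factors it was 3.87 for ATF3, 3.11 for ETV5, 1.37 for ETV4, -2.16 for RUNX2 and -0.73 for JUND. Among cell type markers it was 1.57 for KRT19, 0.81 for EPCAM and -1.71 for CSF1R. In MMP3, TIMP4 and CSF1R no SKOV3 array detected the gene. In MMP7, MMP10, MMP15, MMP28, SPOCK2, ADAMTS1 and KRT19 no OVCAR5 array did, so those values set a measured change against readings below detection. By its other probes ADAM17 changed by 0.79 and 0.70 log2 in SKOV3 and by 0.71 and 0.40 log2 in OVCAR5. MMP28, MMP15, SPOCK2 and CSF1R passed the detection filter only through the lovastatin arrays of 1 line, so their values are a description.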

How the results depend on the processing

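The number of genes called in OVCAR5 (2558) ranged over 1355 to 3200 when each array was left out in turn, the lowest being 1355 without OVCAR5 lovastatin replicate 1, 1416 without OVCAR5 DMSO replicate 2, 1434 without OVCAR5 lovastatin replicate 2 and 1437 without OVCAR5 DMSO replicate 1. In SKOV3 (5665) it ranged over 4321 to 5579, for the difference between lines (3062) over 2086 to 3452 and for the lines in DMSO (6940) over 5899 to 7383. Deviations of same-numbered arrays from their group means correlated at 0.227 in SKOV3 and -0.03 in OVCAR5, and the main fit had no block. Replicate 1 had more detected probes than replicate 2 in each group. With lovastatin these were 17231 against 15724 in SKOV3 and 16206 against 15717 in OVCAR5. With DMSO they were 16909 against 15540 and 15877 against 15370. A batch shared by replicate number was not tested. With the replicate number as a block the counts were 5819 in SKOV3, 2567 in OVCAR5, 3151 for the difference and 7070 in DMSO, and this replicate block changed 3 calls among the named genes in OVCAR5: TIMP1 was gained, and SPOCK1 and S100A10 were lost. The direction of MMP14 between lines (-0.16 log2) ranged over -0.43 to 0.12 with an array left out and turned to 0.12 without OVCAR5 DMSO replicate 2 and to 0.01 without OVCAR5 lovastatin replicate 1. Over 17 alternatives the calls among the 7 tested genes of the set moved in both lines, and nothing is read from them, as these contrasts chose the genes. Among other named genes, 16 lost a call in 59 combinations of gene and setting, 52 of them with an array left out. With 2 arrays a group, small differences such as those of TIMP1 sat near the threshold, and MMP2, MMP13 and TIMP3 were at or below the detection limit.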
